A study of Homo sapiens with 7 samples.

Results

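The 591 broad acetylated domains described here belong to KARPAS-45, a T-cell acute lymphoblastic leukemia (T-ALL) line with a KMT2A rearrangement, and have no counterpart among the broadest domains of PER-117, a second T-ALL line. They were found by joining neighbouring H3K27ac regions of a line that lay within about 13 kb of each other (the exact distance stands with the processing) on chromosomes 1 to 22 and X, ranking the joined domains by the bases their regions covered, and keeping the first 1000 of each line. Of the 1000 KARPAS-45 domains, drawn from 19836, 591 overlapped none of the PER-117 1000 and 409 did; the latter are called shared domains below. The 591 domains were chosen by the H3K27ac regions of both lines, so their acetylation is given as a description and no test rests on it. The word "only" refers to breadth: 41 of the 591 held no PER-117 H3K27ac base, 144 overlapped a PER-117 domain among the next 1000, and the other 406 overlapped PER-117 domains ranked lower still. In 134 of the 591, the PER-117 regions inside added up to at least the 14.38 kb covered by the PER-117 domain of rank 1000.

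The study asked where RUNX2 sits in immature and KMT2A-rearranged T-ALL, using chromatin immunoprecipitation with sequencing for RUNX2 (antibody D1H7) and for H3K27ac (antibody ab4729). KARPAS-45 was grown with 20% fetal bovine serum and PER-117 with 10%, and neither line received a treatment. There was 1 library per line and antibody, so the lines cannot be told apart from their libraries and no test between them was possible. The KARPAS-45 lists were longer, with 63265 H3K27ac regions over 167 Mb against 53263 regions over 76.2 Mb in PER-117, and with 42911 RUNX2 peaks against 21027, and the read depth behind any of them is not given in the sources used here. The KARPAS-45 H3K27ac list also reaches down to weaker regions, with a lowest −log10 q of 0.431 against 1.01 and a lower quartile of fold enrichment of 1.51 against 2.55. How either list was called is not given, so part of the breadth in KARPAS-45 cannot be told apart from its calling.

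H3K27ac is a histone mark of active promoters and enhancers, and long runs of it, often called super-enhancers or stretch enhancers, tend to lie at genes that define a cell's identity. RUNX2 belongs to the Runt family of transcription factors, which pair with CBFB and read a short core motif; it is best known for driving bone formation, while RUNX1 and RUNX3 are the family members best known in T cells. KMT2A fusion proteins, found in a group of acute leukemias, are known to leave wide stretches of active chromatin over the genes they bind.

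The promoters of 5 genes in these domains are printed first, because RUNX2 was called inside each of them and they show the range of binding met below. Each line gives the 250 bases upstream of a RefSeq transcript start, 5′ to 3′ on the gene's strand, from the RefSeq promoter table of GRCh38.p14. Capitals mark the RUNX core motif, searched as TGTGGT and, for the other strand, ACCACA, with no other motif searched.

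FKBP5, chr6:35728584-35728833, minus strand: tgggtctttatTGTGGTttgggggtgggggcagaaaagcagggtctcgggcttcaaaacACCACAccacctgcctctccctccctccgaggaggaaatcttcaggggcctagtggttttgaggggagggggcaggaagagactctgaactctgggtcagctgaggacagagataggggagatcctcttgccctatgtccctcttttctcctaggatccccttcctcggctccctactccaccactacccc
PTCRA, chr6:42915803-42916052, plus strand: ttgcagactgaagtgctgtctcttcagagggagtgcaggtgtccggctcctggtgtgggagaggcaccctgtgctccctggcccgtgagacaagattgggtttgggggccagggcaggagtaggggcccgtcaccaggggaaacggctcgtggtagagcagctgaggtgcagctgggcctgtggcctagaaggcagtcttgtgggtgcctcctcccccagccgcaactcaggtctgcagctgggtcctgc
RUNX2, chr6:45328080-45328329, plus strand: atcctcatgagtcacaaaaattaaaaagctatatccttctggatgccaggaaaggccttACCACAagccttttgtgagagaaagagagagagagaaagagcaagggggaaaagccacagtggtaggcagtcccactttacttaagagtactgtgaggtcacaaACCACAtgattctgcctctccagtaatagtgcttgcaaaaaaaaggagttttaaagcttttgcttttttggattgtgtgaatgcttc
THEMIS, chr6:127918596-127918845, minus strand: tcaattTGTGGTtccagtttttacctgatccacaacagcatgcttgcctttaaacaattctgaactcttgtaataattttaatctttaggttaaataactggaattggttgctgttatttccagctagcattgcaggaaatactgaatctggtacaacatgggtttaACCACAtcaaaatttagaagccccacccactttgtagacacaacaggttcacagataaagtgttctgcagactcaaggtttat
CD3D, chr11:118342706-118342955, minus strand: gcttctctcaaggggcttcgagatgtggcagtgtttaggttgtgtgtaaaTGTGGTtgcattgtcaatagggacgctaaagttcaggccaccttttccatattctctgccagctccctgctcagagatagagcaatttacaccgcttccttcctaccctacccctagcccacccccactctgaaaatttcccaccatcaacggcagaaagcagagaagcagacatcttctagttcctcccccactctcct

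In FKBP5, which encodes a chaperone partner of steroid receptors, both lines had a RUNX2 summit in the printed bases, the KARPAS-45 one with a fold enrichment of 49.8 and the PER-117 one with 20.9. The KARPAS-45 value was the highest among the promoters of these domains, and the stretch holds 2 core motifs. PTCRA, the pre-T-cell-receptor alpha chain of early thymocytes, had a KARPAS-45 summit of 45.4 and a PER-117 summit of 4.26, and neither spelling of the motif occurs in the printed bases. At RUNX2 itself the KARPAS-45 summit reached 20.0 and at THEMIS, a signalling protein of thymocyte selection, 13.5; both stretches hold 2 core motifs, and no PER-117 summit was called within the printed bases of either. A PER-117 RUNX2 peak of fold 7.08 did lie within 1 kb of an end of the RUNX2 gene, and none did at THEMIS. Counted from the start of the RUNX2 domain, the gene begins at 222.229 kb. A PER-117 summit lay just inside it at 222.258 kb, and the KARPAS-45 summit just before it at 222.163 kb. Both lines thus had a RUNX2 call at this gene start, with only the KARPAS-45 summit in the printed bases. At CD3D, which encodes 1 of the CD3 chains of the T-cell receptor, KARPAS-45 had a summit of 6.83, PER-117 had one of 6.14, and the stretch holds 1 core motif. Fold enrichment is the authors' value for a peak over its background and ranks peaks within 1 list only.

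Across the RefSeq table, 9.36% of 22132 protein-coding promoter stretches of 250 bases held the core motif, and 8.10% of the 1531 stretches in these domains did (6.84 to 9.57). Among the 591 stretches in these domains with a KARPAS-45 RUNX2 summit, a number equal to that of the domains by coincidence, the share was 11.2% (8.87 to 13.96). It was 14.01% (10.3 to 18.8) among the 257 with a PER-117 summit and 16.1% (11.6 to 21.9) among the 193 with both. The same share over all promoters with a KARPAS-45 summit was 11.2%, and over all with a PER-117 summit 14.99%, so the intervals for these domains held the values of all bound promoters. Intervals in brackets here and below are 95% intervals, Wilson for shares and exact Poisson for densities, and they cover counting error only.

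Acetylation in KARPAS-45 covered between 35.9 and 525 kb of a domain, with a median of 54.4 kb in a median of 16 separate regions, and the domains spanned a median of 110 kb. PER-117 regions covered between 0 and 49.3 kb of the same stretches, with a median of 8.42 kb. The bases marked in both lines made up a median of 12.4% of the KARPAS-45 bases, against 39.1% in shared domains. The median was 5.92% when regions within 2.5 kb of a gene end were left out before joining. Together the 591 domains held 43.0 Mb of KARPAS-45 H3K27ac, which is 25.8% of all its acetylated bases, and 5.82 Mb of PER-117 H3K27ac, which is 7.63% of all of that line's.

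**Figure D1:**
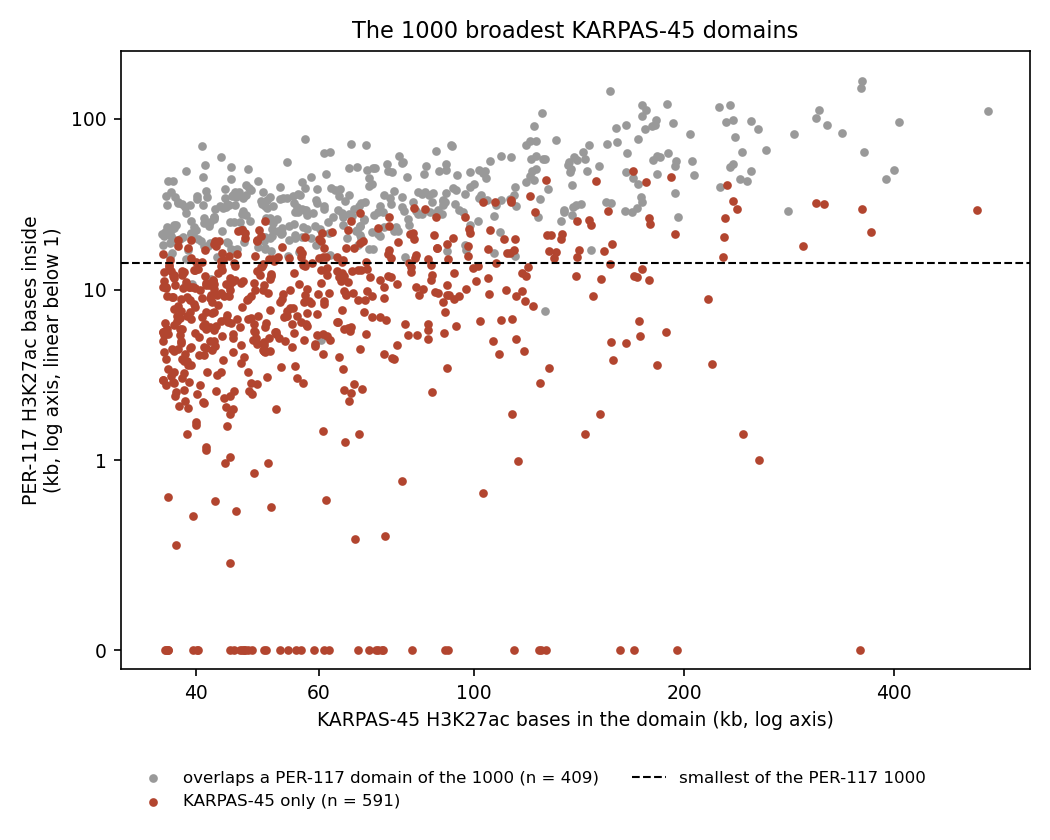
Each point is 1 of the 1000 broadest KARPAS-45 domains, with its KARPAS-45 H3K27ac bases on the horizontal axis (kb, log axis) and the PER-117 H3K27ac bases inside it on the vertical axis (kb, log axis, linear below 1), red for the 591 KARPAS-45-only and grey for the 409 shared domains. Most red points lie below the dashed line at 14.38 kb, the smallest of the PER-117 1000, 134 lie on or above it, and 41 lie at 0.

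What PER-117 acetylation there was lay near gene ends more often than the KARPAS-45 acetylation did. Of the PER-117 bases in these domains, 38.9% were within 2.5 kb of an end of a protein-coding gene, against 13.2% of the KARPAS-45 bases and 11.8% of the spanned sequence. In shared domains the corresponding values were 25.2% for PER-117, 17.4% for KARPAS-45 and 16.7% for the span. The gene table used carries no strand, so a gene end here is either end of the gene's span.

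RUNX2, which the choice of domains did not use, was called in KARPAS-45 in all 591 domains (100%, 99.4 to 100). The share was 58.5% over all KARPAS-45 domains and 100% over the 1000 broadest, so this was common to all of the broadest domains. A PER-117 RUNX2 summit lay in 510 of the 591 (86.3%, 83.3 to 88.8), against 35.2% of all KARPAS-45 domains, 91.8% of the 1000 broadest and 408 of the 409 shared ones. With regions near gene ends left out before joining, it was 52.0%. A domain held between 1 and 58 KARPAS-45 summits, with a median of 7, and between 0 and 16 PER-117 summits, with a median of 2. KARPAS-45 had more summits than PER-117 in 547 domains, the same number in 32 and fewer in 12.

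Because wider domains hold more peaks, summits were also counted per Mb of KARPAS-45 H3K27ac. The 591 domains had 117.04 KARPAS-45 summits per Mb (114 to 120) and 37.6 PER-117 summits per Mb (35.8 to 39.5). Shared domains had 142 (139 to 146) and 78.2 (75.5 to 81.1). The PER-117 density in KARPAS-45-only domains lay below that of shared domains in each class of size: 54.8 against 132 per Mb for domains of 35 to 50 kb, 39.96 against 88.5 for those of 50 to 100 kb, and 24.2 against 62.0 for those of 100 kb or more. When the KARPAS-45 list was shortened to its strongest peaks, as many as PER-117 has, KARPAS-45 kept the higher density in these domains, 57.2 against 37.6 per Mb, while in shared domains the order turned, 70.7 against 78.2.

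RUNX2 summits of PER-117 were denser in classes of domain with more PER-117 acetylation. In the 41 domains with no PER-117 H3K27ac, PER-117 had 1.87 RUNX2 summits per Mb (0.686 to 4.07), 6 summits in all. The density was 19.4 per Mb in the 194 domains where up to 10% of the bases were also acetylated in PER-117, 43.4 in the 203 with 10 to 20% and 75.4 (69.8 to 81.4) in the 153 above 20%, close to the 78.2 of shared domains. KARPAS-45 moved less over the same classes, with 105, 106, 114 and 148 summits per Mb. The classes share libraries and were set by H3K27ac, so these densities are a description of 4 peak lists. They also differ in gene content, with no protein-coding gene end in 21 of the 41 domains, 26 of the 194, 15 of the 203 and 9 of the 153. The part of gene ends in these densities was not tested.

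**Figure D2:**
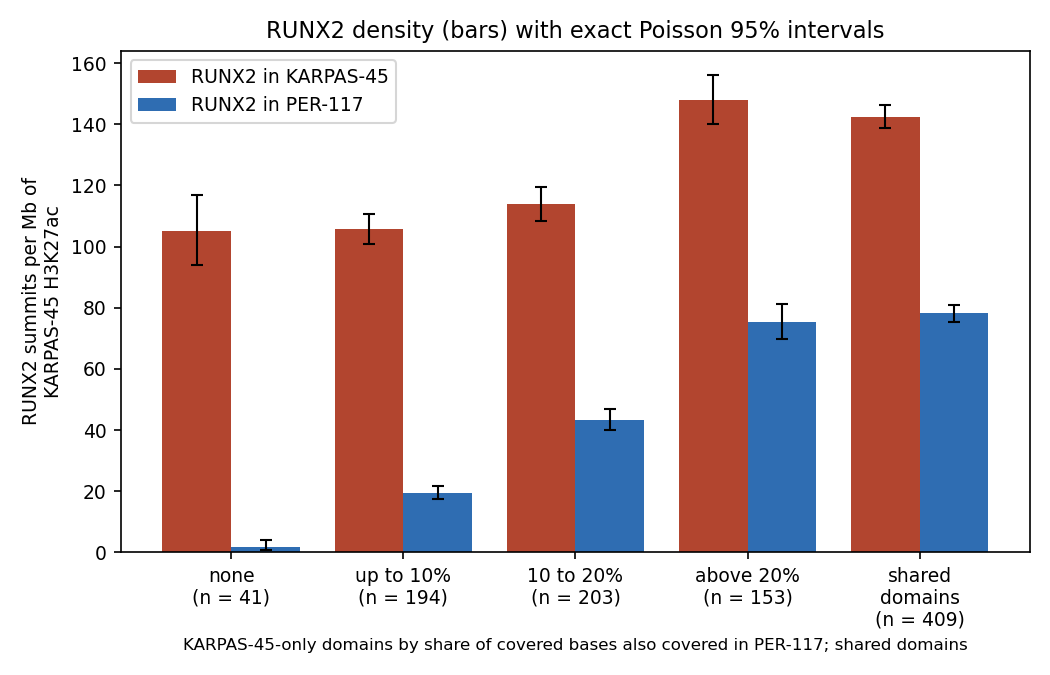
Bars give RUNX2 summits per Mb of KARPAS-45 H3K27ac in KARPAS-45 (red) and PER-117 (blue) for KARPAS-45-only domains in 4 classes by the share of their covered bases that PER-117 also acetylated, and for shared domains, with exact Poisson 95% intervals as error bars. The blue bars climb from 1.87 to 75.4 across the 4 classes, while the red bars go from 105 to 148.

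RUNX2 sites common to both lines were less frequent in these domains than in shared ones, and this lay in the distal sites. Of 5031 KARPAS-45 RUNX2 peaks, 1330 overlapped a PER-117 peak (26.4%, 25.2 to 27.7), against 39.7% (38.4 to 41.0) in shared domains and 31.2% of all KARPAS-45 peaks. Peaks within 1 kb of a gene end were shared at 49.4% (46.5 to 52.3) in KARPAS-45-only and 48.8% (46.1 to 51.6) in shared domains. Distal peaks were shared at 19.9% (18.6 to 21.1) and 36.9% (35.5 to 38.4). Peaks of 1 library are not replicates, so these intervals set the 2 classes of domain side by side without testing them.

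The PER-117 peaks in these domains were mostly also KARPAS-45 peaks. Of 1616, 82.2% (80.2 to 84.0) overlapped one, against 72.3% in shared domains and 63.6% of all PER-117 peaks. The 1616 peaks lay at a gene end in 39.0% of cases, against 22.3% of the KARPAS-45 peaks. In shared domains these shares were 26.7% and 23.1%. PER-117 H3K27ac filled 5.82 of the 75.5 Mb that the KARPAS-45-only domains span, and 83.5% of the PER-117 summits fell in it. In shared domains PER-117 H3K27ac filled 16.4 of 64.0 Mb and held a larger share of the PER-117 summits, 90.2%. The density was 232 per Mb of PER-117 H3K27ac (220 to 245) in KARPAS-45-only domains, against 169 in shared domains.

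KARPAS-45 peaks of these domains that overlapped a PER-117 peak had a median fold enrichment of 9.62, and the others 5.69. The medians in shared domains were similar, 9.17 and 5.44. Of the overlapping peaks in KARPAS-45-only domains, 83.8% lay in PER-117 H3K27ac, and of the others 27.3%. Shared domains had 89.4% and 53.9%. A KARPAS-45 RUNX2 site could thus be acetylated in PER-117 without a RUNX2 call there. This was the case for 1010 peaks in KARPAS-45-only domains and 1815 in shared domains.

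Of the broadest domains, several are given with their genes. IGF1R, the receptor of insulin-like growth factor 1, lies in the domain of rank 9 (chr15:98647376-99077459), with 359 kb of H3K27ac in KARPAS-45 and 29.6 kb in PER-117. KARPAS-45 had 46 RUNX2 summits there and PER-117 had 8, and 8 of the 46 KARPAS-45 peaks overlapped a PER-117 peak. The domain of rank 2 (chr6:21648325-22203511) was the broadest of all 591, with 525 kb against 29.2 kb and with 58 against 7 RUNX2 summits, and 368 kb of it were deposited as a single region. Its 1 protein-coding gene end belongs to LOC124901483, an uncharacterised locus.

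KMT2E and SRPK2, a chromatin protein and a kinase of splicing factors, share the domain of rank 14, with 317 kb against 31.7 kb and 24 against 8 RUNX2 summits. The domain of LIPC, ADAM10 and MINDY2 held 371 kb against 21.7 kb and 36 against 8 summits; ADAM10 is the protease that makes the first ligand-dependent cut in NOTCH receptors. TFDP2, a partner of E2F factors, lies with ATP1B3 and GK5 in a domain of 309 kb against 32.1 kb and 22 against 7 summits. SSBP2, a single-stranded DNA-binding protein of LDB1 complexes, had 235 kb against 32.8 kb and 15 against 2 summits. In the domain with PIK3CD, the leukocyte PI3-kinase subunit p110 delta, the values were 238 kb against 29.8 kb and 21 against 10. TRIM2, MND1 and TMEM131L lay in 296 kb against 17.9 kb, with 25 summits against 2.

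In 3 other wide domains PER-117 H3K27ac covered 1.01 to 3.66 kb. The domain of ZBP1, a sensor of Z-form nucleic acid, and PMEPA1, a TGF-beta target, had 256 kb of H3K27ac in KARPAS-45 and 1.01 kb in PER-117, with 38 RUNX2 summits against 1. COL23A1, a membrane collagen, had 243 kb against 1.43 kb and 25 summits against 0. PRDM16, a zinc-finger regulator, had 219 kb against 3.66 kb with 20 summits against 2.

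In the 41 domains without any PER-117 H3K27ac, 21 had no end of a protein-coding gene, against 71 of all 591, and PER-117 RUNX2 was called in 6 of them. The broadest with a named gene was FAT1, a giant cadherin, with 162 kb in KARPAS-45 and 20 RUNX2 summits against 1. VIPR2, a receptor of vasoactive intestinal peptide, had 127 kb and 15 summits against 1. PXDN and MYT1L, a peroxidase of the extracellular matrix and a neuronal zinc-finger factor, had 124 kb and 15 against 0, and BCHE, butyrylcholinesterase, 91.7 kb and 9 against 0. Of the 10 broadest such domains, 1 lies on chromosome 8, whose genes were counted and not named. Another 5 of the 10 have no protein-coding gene end, among them 195 kb on chr4:64780747-65052275 with 12 against 0 summits, 169 kb on chr17:22051693-22256940 with 12 against 0, 114 kb at the long non-coding gene MIR99AHG on chromosome 21 with 13 against 0, and 91.0 kb on chr2:239504105-239631217 with 18 against 0.

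**Figure D3:**
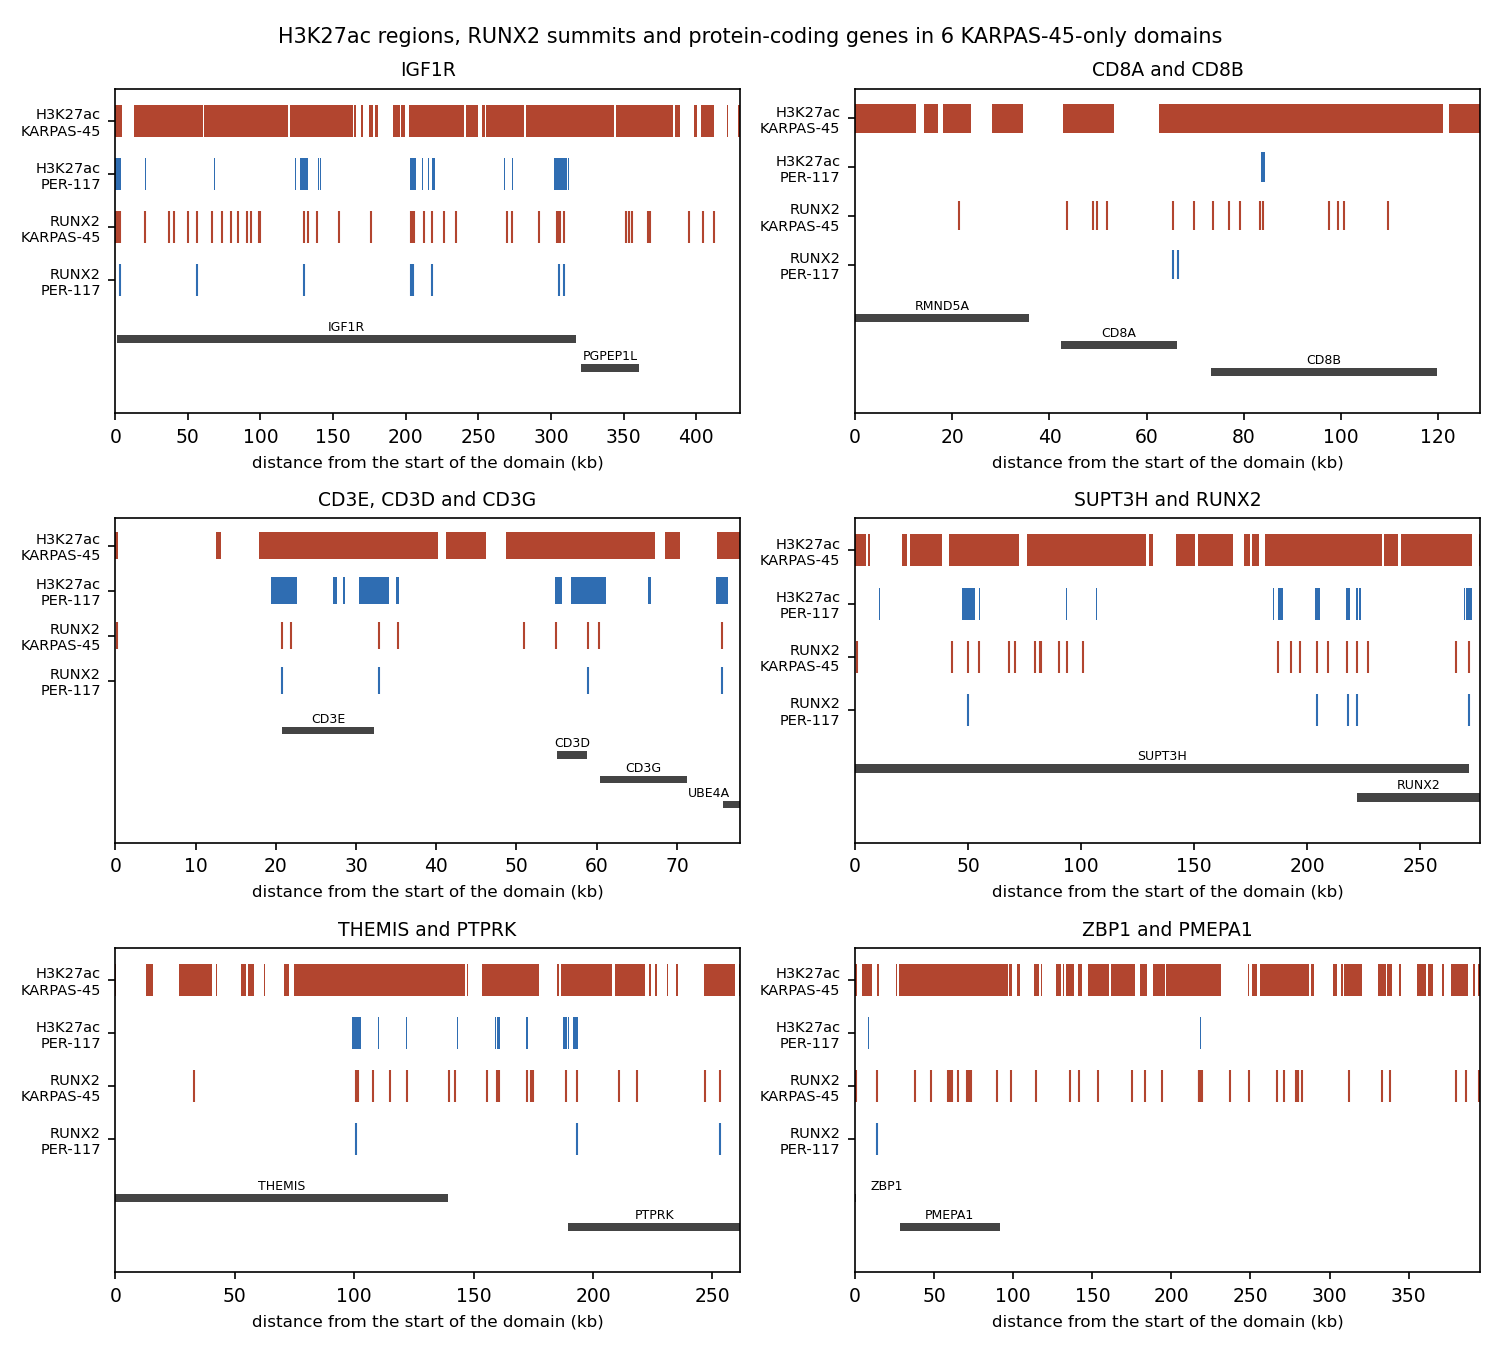
Maps of 6 KARPAS-45-only domains, with distance from the start of the domain in kb on the horizontal axis, H3K27ac regions as filled bars and RUNX2 summits as ticks (red KARPAS-45, blue PER-117), and spans of protein-coding genes below in grey, cut at the domain's edges. The blue H3K27ac marks are shorter than the red ones and mostly lie within them, down to 0.826 kb against 103 kb at CD8A and CD8B and 1.01 kb against 256 kb at ZBP1 and PMEPA1.

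The domains held an end of 1430 protein-coding genes, 7.16% of the 19974 in the table. H3K27ac lay within 1 kb of an end of 98.6% of these genes in KARPAS-45 and of 83.3% in PER-117, over backgrounds of 61.0% and 55.5% of all protein-coding genes. By gene, 1189 were acetylated at an end in both lines, 221 in KARPAS-45 alone, 18 in neither and 2, GMCL2 and KDELR1 (named after their values were seen), in PER-117 alone. RUNX2 lay at an end of 78.7% in KARPAS-45 (76.5 to 80.7), and for PER-117 the share was 51.6% (49.0 to 54.2), over backgrounds of 48.3% and 32.5%. In shared domains the RUNX2 shares were 73.9% and 53.7%. RUNX2 was at an end in both lines for 704 of the 1430 genes, in KARPAS-45 alone for 421, in PER-117 alone for 34 and in neither for 271. So 1191 of the 1430 genes had an acetylated end in PER-117 too.

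Of 274 genes in 19 lists of blood, leukemia and control genes, 26 had an end in a KARPAS-45-only domain (9.49%, against 7.16% of all protein-coding genes) and 45 in a shared one (16.4%, against 8.34%). The count was 7 of 22 for T-cell surface genes, 5 of 22 for T-lineage transcription factors and 5 of 20 for known targets of KMT2A fusions. Shared domains held 3, 8 and 3 of these. The KARPAS-45-only count was 2 of 20 for T-cell receptor signalling, 2 of 12 for the NOTCH pathway and 2 of 20 for homing and adhesion, against 8, 1 and 7 in shared domains. It was 1 for each of the RUNX genes (of 4), V(D)J recombination and the pre-T-cell receptor (of 4), progenitor genes (of 16), survival and cell cycle (of 16) and bone targets of RUNX2 (of 14). In shared domains these lists had 2, 0, 2, 5 and 0. No gene had an end in KARPAS-45-only domains from the lists of T-ALL oncogenic transcription factors (19 genes), cytokine receptors and their signalling (20), MHC class II (10), cytotoxic and NK (15), B-lineage (12), myeloid (12), erythroid and megakaryocyte (12) and non-blood genes (14). Shared domains held 3, 3, 0, 0, 1, 0, 1 and 0 of these, in the same order. The lists were written with earlier results of these peak files known, the H3K27ac choice of domains fixes these counts, and they are given without a test.

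Among the T-cell surface genes, the coreceptor genes CD8A and CD8B had the largest difference in acetylated bases between the lines. The domain that holds both (chr2:86742162-86870713) had 103 kb of H3K27ac in KARPAS-45 and 0.826 kb in PER-117, and 16 RUNX2 summits against 2. No PER-117 H3K27ac lay at an end of either gene, yet a PER-117 RUNX2 peak of fold 7.77 lay at an end of CD8A, where KARPAS-45 had one of 12.6. CD6, an adhesion receptor of T cells, had 36.5 kb against 0 and 6 summits against 0, but its domain ranks 967 and so lies near the edge of the selection.

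CD3E, CD3D and CD3G, which encode 3 CD3 chains, lie together in chr11:118283913-118361755, with 51.6 kb of H3K27ac in KARPAS-45 and 15.1 kb in PER-117. Each had an acetylated end in both lines. RUNX2 lay at an end of CD3E with a KARPAS-45 fold of 41.6 and a PER-117 fold of 23.5, and the domain held 10 summits against 4. CD2, an adhesion receptor, had 53.2 kb against 17.8 kb and RUNX2 of fold 34.2 and 16.6 at an end. PER-117 acetylation in the CD3 and in the CD2 domain added up to more than the 14.38 kb of that line's rank 1000 domain, but in each it was divided between 2 PER-117 domains.

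**Figure D4:**
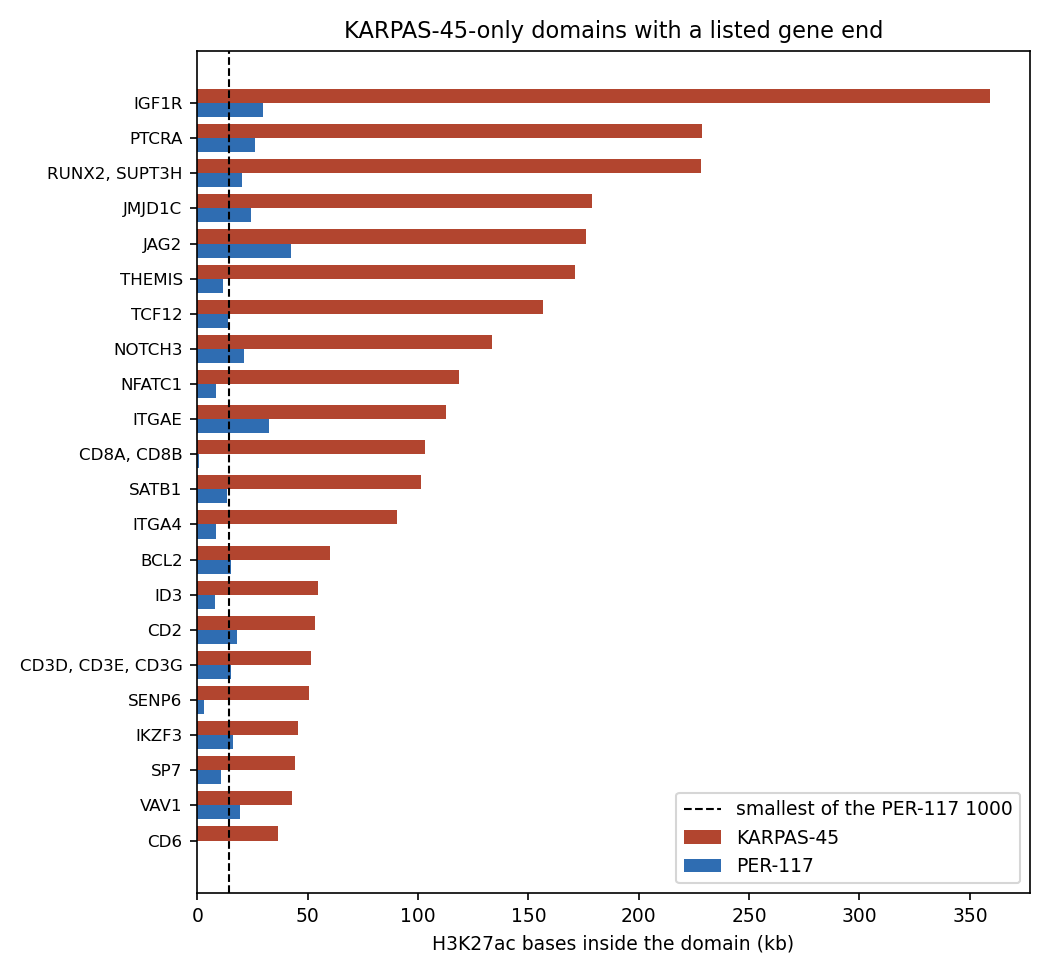
For each of the 22 KARPAS-45-only domains with an end of a listed gene, bars give the H3K27ac bases inside the domain in KARPAS-45 (red) and PER-117 (blue) in kb, with the dashed line at the 14.38 kb of the smallest of the PER-117 1000. The red bars run from 36.5 kb at CD6 to 359 kb at IGF1R, and the blue bars from 0 at CD6 to 42.6 kb at JAG2.

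In T-cell receptor signalling, THEMIS had 171 kb against 11.8 kb in a domain with PTPRK, a receptor phosphatase, and 20 RUNX2 summits against 3. No PER-117 mark of either kind lay at an end of THEMIS. VAV1, an exchange factor below the receptor, had 43.1 kb against 19.3 kb and RUNX2 at an end in both lines, at 13.2 and 6.12. Of the other 18 genes of that list, 8 had an end in a shared domain.

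The 5 T-lineage transcription factors were NFATC1, SATB1, TCF12, ID3 and IKZF3. TCF12, an E protein, had 157 kb against 14.1 kb and 17 RUNX2 summits against 2. RUNX2 lay at an end of TCF12 in both lines, with folds of 11.97 (KARPAS-45) and 12.8 (PER-117), each within its own list. NFATC1, a calcium-responsive factor, had 119 kb against 8.61 kb with 19 summits against 3, none of them at an end of NFATC1. SATB1, a chromatin organiser of thymocytes, had 102 kb against 13.7 kb and 7 summits against 4. ID3, an inhibitor of E proteins, had 54.5 kb against 7.85 kb and 9 against 5, and IKZF3, an Ikaros-family factor, 45.8 kb against 16.2 kb and 10 against 7.

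PTCRA lies in a gene-rich domain of 229 kb against 26.4 kb that holds ends of 18 protein-coding genes, among them SRF and PTK7, and with 28 RUNX2 summits against 8. Over the PTCRA gene itself, 9.79 kb were acetylated in KARPAS-45 and 0.322 kb in PER-117. In the NOTCH pathway, the receptor gene NOTCH3 had 134 kb against 21.1 kb and 15 summits against 2, and the ligand gene JAG2 176 kb against 42.6 kb and 21 against 10 in a domain with ends of 10 genes. JAG2 itself carried 12.3 kb in KARPAS-45 against 0 in PER-117.

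The KMT2A-fusion targets in these domains were RUNX2, SUPT3H, JMJD1C, BCL2 and SENP6. RUNX2 and its neighbour SUPT3H, a subunit of SAGA-type complexes, share chr6:45106101-45382559, with 228 kb against 20.2 kb and 22 RUNX2 summits against 5, and 5 of the 22 KARPAS-45 peaks overlapped a PER-117 peak. The domain ends inside RUNX2. The next one downstream, within the gene, is a shared domain with 79.2 kb in KARPAS-45 and 56.1 kb in PER-117 and with 11 and 9 summits. Over the whole RUNX2 gene, 128 kb were acetylated in KARPAS-45 against 61.4 kb for PER-117.

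JMJD1C, a Jumonji-family protein, had 179 kb against 24.2 kb and 17 summits against 6, and SENP6, a SUMO protease, 50.6 kb against 3.08 kb and 2 against 0. BCL2, which blocks apoptosis, had 60.1 kb against 15.3 kb and 10 summits against 6 around 1 end of the gene. A second stretch inside BCL2 belongs to the domains that only PER-117 has among its 1000, with 18.1 kb of PER-117 H3K27ac.

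In homing and adhesion, ITGA4, the integrin alpha 4 chain, had 90.5 kb against 8.41 kb and 9 summits against 2, with RUNX2 at an end in both lines at 14.7 and 13.0. ITGAE, the integrin chain CD103 of intraepithelial T cells, shares a domain of 113 kb against 32.7 kb with 7 other genes, with 14 summits against 11 and none at an end of ITGAE. SP7, a bone transcription factor below RUNX2, lies with SP1 and AAAS in 44.2 kb against 10.8 kb, but only 0.455 kb of the SP7 gene was acetylated in KARPAS-45 and 0.156 kb in PER-117.

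Membership of single genes moved with the settings of the selection. Over 11 other ways of joining, ranking or filtering the regions, CD8A, CD8B, THEMIS and ITGA4 were in a KARPAS-45-only domain in 10, PTCRA, RUNX2, SUPT3H, ID3 and SENP6 in 9, the CD3 genes in 8 and IGF1R in 7. CD2, NOTCH3 and JAG2 were in one in 4 of the 11 and VAV1 in 3. Leaving out regions near gene ends removed all 26, and left 195 protein-coding genes with an end in a KARPAS-45-only domain. The number of T-cell surface genes ran from 0 under that setting, and from 3 under the others, to 8.

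Antigen receptor loci also appeared. A stretch of V segments of the T-cell receptor beta locus (chr7:142407568-142540260, from TRBV11-1 to TRBV13 in the table) had 125 kb of KARPAS-45 H3K27ac, none of PER-117, and 7 RUNX2 summits against 0. Another stretch of the locus, around TRBV14 to TRBV20-1, had 48.1 kb against 0 and 4 against 0. At the T-cell receptor gamma V segments (chr7:38299709-38372274) the values were 61.5 kb against 15.6 kb and 10 summits against 3. V segments are members of families of similar sequence, so reads could be divided among them, and how such reads were treated is not given in the sources used here. Peak lists also do not show whether the DNA of each line still holds these segments, which was not tested. The values of 0 in PER-117 therefore cannot be read as unmarked chromatin.

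Of 1772 miRNA genes with a hairpin or mature entry in the RefSeq table on these chromosomes, 108 (6.09%) lay in a KARPAS-45-only domain. The gene overlapped H3K27ac in KARPAS-45 alone for 44 of the 108, in both lines for 20, in PER-117 alone for 4 (MIR6840, MIR212, MIR3613 and MIRLET7A3) and in neither for 40. The same split over all 1772 genes is not given here. Because the domains were chosen by H3K27ac of both lines, a lean to KARPAS-45 alone is built into the split. The mature sequences below, from RefSeq with the seed (bases 2 to 8) in capitals, are those of the 44 genes that have a seed in common with another of the 44, in 4 groups.

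hsa-miR-15a-5p: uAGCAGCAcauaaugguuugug
hsa-miR-16-5p: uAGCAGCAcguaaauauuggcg
hsa-miR-181c-5p: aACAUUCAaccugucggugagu
hsa-miR-181d-5p: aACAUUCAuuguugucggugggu
hsa-miR-130b-3p: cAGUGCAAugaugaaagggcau
hsa-miR-301a-3p: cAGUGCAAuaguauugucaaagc
hsa-miR-301b-3p: cAGUGCAAugauauugucaaagc
hsa-miR-454-3p: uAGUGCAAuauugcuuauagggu
hsa-miR-378h: aCUGGACUuggugucagaugg
hsa-miR-378i: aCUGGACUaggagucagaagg

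The miR-15a and miR-16 pair, known to restrain BCL2, lies on chromosome 13 in a domain with TRIM13 and KCNRG of 142 kb against 17.1 kb and with 10 RUNX2 summits against 3. The miR-181c and miR-181d pair, of a family known to tune T-cell receptor signalling, lies on chromosome 19 in 39.8 kb against 8.24 kb with 8 summits against 2. The third seed comes from 2 domains, one on chromosome 22 with UBE2L3 (61.5 kb against 13.4 kb, 7 summits against 3) and one on chromosome 17 with TRIM37 (91.4 kb against 9.35 kb, 6 summits against 4). The last seed comes from a domain on chromosome 5 (76.1 kb against 11.8 kb, 8 summits against 4) and another on chromosome 22 (49.1 kb against 7.04 kb, 6 summits against 2). These miRNAs were picked after their values were seen, and the peak lists do not measure the miRNAs themselves.

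At the other end of the range, some of these domains had much RUNX2 in PER-117. The largest number was 16, against 20 in KARPAS-45, in a gene-rich domain on chromosome 11 from PACS1 to B4GAT1 with 87.7 kb against 20.9 kb. A domain around SETDB1 and MLLT11 had 15 against 23, one around PRKD2 and SLC1A5 had 15 against 17, and one around MCM7 and TAF6 had 12 against 25. Inside RAP1GAP2, an interior domain of 37.7 kb against 19.6 kb had 11 PER-117 summits and 8 in KARPAS-45, with folds up to 37.0 and 47.4. It was 1 of 12 domains with more PER-117 than KARPAS-45 summits, which included those of MELK, ELF2, TMPO and ETF1, and in the other 11 PER-117 exceeded KARPAS-45 by 1 or 2.

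The lower edge of the selection lies in a smooth range. The last KARPAS-45-only domains above rank 1000, at PPTC7 and TCTN1, at PHIP, within NEDD9, at ARHGEF18 and at FGD3, covered 35.9 kb each. Below it, domains at DYNC1H1 and HSP90AA1, at UBE2D3 and CISD2, on chromosome 5, at KBTBD2, and at ABHD17B and C9orf85, the last of which overlaps a PER-117 domain of the 1000, covered 35.6 to 35.8 kb. The former held 4, 4, 6, 5 and 5 KARPAS-45 RUNX2 summits and 0, 1, 1, 5 and 5 PER-117 summits, the latter 7, 5, 3, 5 and 3 and 5, 5, 0, 1 and 2.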

How the data were processed

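RUNX2 and H3K27ac peak lists of KARPAS-45 and PER-117 were used as deposited, 1 per ChIP library. The other 3 of the 7 samples, all inputs, were not analysed here. They are a KARPAS-45 input, a PER-117 input and a PER-117 H3K27ac input, so only PER-117 has an input labelled for H3K27ac. Which input stood behind which list is not given. Per the submitters' processing notes, the tools were MACS2 and STAR 2.4.2a and the build hg38. The sources used here do not give roles, thresholds or depth. The authors deposited, per peak, a display score, a fold enrichment (a linear ratio over background), −log10 p and −log10 q. Only positions, fold enrichment and −log10 q were used.

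Where a RUNX2 peak had several summits, the strongest by fold stood for it. Peaks overlapped at 1 bp or more. Joining H3K27ac regions within 12.5 kb and ranking by covered bases gave the domains. Genes, promoters and miRNAs came from RefSeq tables of GRCh38.p14, which give no exons, and a gene end means within 1 kb of either end of a gene's span. No genome sequence was used. The interval code was tested on simulated data against base-by-base counts. The work was done in Python 3.11.15 with pandas 2.3.3, numpy 2.4.6, matplotlib 3.10.9 and scipy 1.17.1.

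The domains, gene lists and settings were chosen with earlier results of these data known. Genes were named when they had an end in, or else overlapped, the 15 broadest domains, the 10 broadest without PER-117 H3K27ac, the 10 with most RUNX2 summits of either line, the 5 on each side of the edge at rank 1000, or were in a fixed list. In gene-rich domains only some are named, genes of chromosome 8 are not, 1 domain the rule names is not reported here, and others were named after their values were seen. With 1 library per line no test was made.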

Additional observations from a re-analysis of the deposited data

How the results depend on the processing

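Settings changed 1 at a time moved the number of domains, the median share of their bases also acetylated in PER-117 (12.4%), the shares of domains with a KARPAS-45 (100%) or PER-117 (86.3%) RUNX2 summit, and the share of KARPAS-45 RUNX2 peaks that overlap a PER-117 peak (26.4%). The share with a PER-117 summit was 77.2% with joining within 5 kb, 90.6% within 25 kb, 82.0% with H3K27ac regions kept from a −log10 q of 2, and 77.2% with 2000 domains per line, where 1103 were KARPAS-45-only. With 500 domains per line there were 333, with a median of 13.4% and PER-117 RUNX2 in 91.6%. Shortening the KARPAS-45 H3K27ac list to the covered length of PER-117 gave a median of 13.4%, summits in 98.9% and 71.0%, and an overlap of 24.9%. The shortening kept the widest KARPAS-45 regions first, so it evened out covered length and not region width. Ranking by span gave a median of 13.3%. Leaving out regions within 2.5 kb of a gene end gave a median of 5.92%, summits in 92.9% and 52.0%, and an overlap of 18.9%. Asking for no overlap with the 2000 broadest PER-117 domains gave 9.93%, 82.1% with a PER-117 summit and an overlap of 23.2%. RUNX2 peaks kept from a −log10 q of 10 gave summits in 98.3% and 68.0% and an overlap of 23.8%, the strongest KARPAS-45 peaks in equal number to PER-117 gave 97.8% and an overlap of 38.4%, and an overlap of 50% of the shorter peak gave 25.02%. Of 2 settings chosen after seeing the data, keeping only the 457 domains whose PER-117 bases together stay below the value at rank 1000 gave a median of 10.1%, PER-117 RUNX2 in 82.5% and an overlap of 23.6%, and leaving out KARPAS-45 regions over 100 kb gave 597 domains and moved none of the other 4 results beyond their intervals. Beyond what each setting changes by construction, the cause was not tested. From 43.3% of the 591 domains (500 per line) to 99.2% (no regions over 100 kb) were met again by a domain chosen under another H3K27ac setting. No paired analysis was possible because each line and antibody has 1 library. With no depth given, what each list could have missed is unknown.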

Other observations

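KARPAS-45-only domains took a different part of the 1000 broadest KARPAS-45 domains on different chromosomes. They were 83.3% on chromosome 18, with 15 against 3 shared domains, and 77.5% on chromosome 4, with 31 against 9. They were 34.5% on chromosome 19, with 20 against 38, and 40.4% on chromosome 11, with 19 against 28. The nearest other domain of the KARPAS-45 1000 lay a median of 325 kb away.

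The 10 strongest KARPAS-45 RUNX2 peaks of these domains lay 1.30 to 72.9 kb from the closest protein-coding gene end, and 9 of them overlapped a PER-117 peak. The highest fold was 79.6, with the nearest end that of IGF2R, a lysosomal sorting receptor, at 59.9 kb. That peak lay outside H3K27ac of both lines and overlapped a PER-117 peak. The exception was a peak of fold 60.8 at 6.43 kb from HSDL1. All 10 of the strongest PER-117 peaks overlapped a KARPAS-45 peak. The highest had folds of 45.4, at 33.3 kb from CPN2, and 41.8, at 18.8 kb from CLEC2D, a lectin-type receptor ligand of lymphocytes, and both lay in H3K27ac of both lines. These genes were named after their values were seen.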
